A study of Mus musculus with 24 samples.

Results

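Cells of the PaX reprogramming system were compared between day 2 and day 5 of reprogramming without added interferon γ (IFNγ). The 4 libraries were 2 of day 2 control cells and 2 of day 5 control cells. All genes with a mean above 10 normalized counts in these 4 libraries were taken, which were 15729 of the 37315 genes measured. The mean over both days chose them, not the difference between the days.

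All cells came from 1 female hybrid embryonic stem cell (ESC) line with a 129S1/SvImJ and a CAST/EiJ genome. It carries a doxycycline-inducible cassette of cMyc, Klf4, Oct4 and Sox2, a transactivator in the Sp3 locus, a GFP reporter within the Hprt gene of the 129S1/SvImJ X (M. musculus, X mus), a truncated Tsix on that X and a red reporter driven by the Nanog promoter. The line was differentiated into neural precursor cells (NPCs), and NPCs negative for SSEA1, X-GFP and the Nanog reporter were given doxycycline, ascorbic acid and LIF in serum, on irradiated feeder fibroblasts from male mouse embryos. The control cells of both days shared all of this and received no IFNγ. Day 2 cells had been sorted as negative for CFSE, a dye with which the feeders had been stained, and had not been selected for SSEA1. Day 5 cells had been enriched on magnetic beads and sorted for SSEA1, a carbohydrate of the cell surface that appears on reprogramming cells. Time and SSEA1 selection therefore changed together between the groups and cannot be told apart. In these pooled cells, fewer cells of a type and less RNA per cell cannot be told apart either. The study calls the 2 libraries of a group independent replicates, but the labels do not say whether they were separate cultures, so p-values may measure only the spread between libraries.

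During reprogramming the 4 transcription factors of the cassette act on the genome of a differentiated cell. The program of that cell is silenced first, mesenchymal cells take on epithelial junctions, and genes of the pluripotency network are switched on in steps, with Nanog, Esrrb, Prdm14 and the Dppa genes among the later ones. SSEA1 marks cells that have entered this course, and most of them still keep the X chromosome that was silenced during differentiation inactive.

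The 4 libraries held 26661831 and 26864197 reads on genes at day 2, and 34794609 and 33106141 at day 5. Of the counts in each, 16.2 to 17.8% belonged to mt-Rnr2, a mitochondrial ribosomal RNA. Between days, limma called 5497 genes higher and 5607 genes lower at day 5 at an adjusted p under 0.1, which is 34.9% and 35.6% of the genes tested. With a change of at least 2-fold added, 1906 genes rose and 3079 fell, 12.1% and 19.6% of the genes tested. The decreases were the more numerous among changes of at least 2-fold. Counts of list members given below are to be read beside these shares. A gene with a mean under 10 on either day could pass the filter on the mean only through the other day, which fixed its direction. The median log2 difference of all genes was 0.00 and the median standard error (SE) was 0.13. Of the genes tested, 6119 passed the threshold with less than a 2-fold change and 4625 did not pass it. When each library was rescaled to the same total, the median of all genes moved to -0.12 on the log2 scale, so that changes of that size depend on the scaling.

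**Figure D1:**
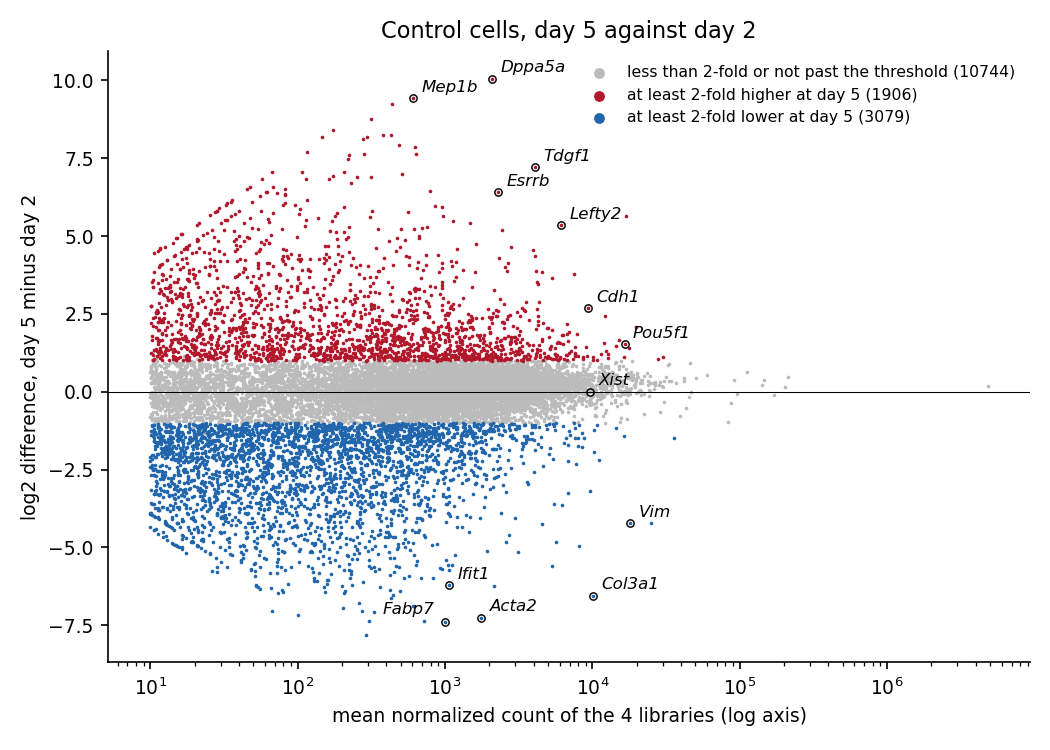
Log2 difference between day 5 and day 2 against the mean normalized count of the 4 libraries (log axis), 1 point for each of 15729 genes. The 1906 genes that rose at least 2-fold (red) and the 3079 that fell at least 2-fold (blue) span the whole range of expression; circles mark named genes, with Dppa5a highest at 10.06 and Xist at 0.01.

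Genes of the naive pluripotency network rose together. Of 26 genes listed, all 26 were tested and rose, 25 of them at least 2-fold, beside 34.9% of all genes that rose at the threshold. Dppa2, Dppa3, Dppa4 and Dppa5a had day 2 means under 10, so they could pass the filter on the mean only through day 5. Their median log2 difference was 4.46, against 0.00 over all genes. Dppa5a, an RNA-binding protein of early embryos, had normalized counts of 4.07 and 1.99 at day 2 and 3848 and 4498 at day 5. The day 5 libraries stood far above the day 2 libraries, and the ESC mean was still higher at 44075. The log2 difference was 10.06 ± 0.28 (adjusted p = 2.3e-06). Esrrb, an orphan nuclear receptor of the network, went from 73.3 and 36.7 to 3917 and 5166, a log2 difference of 6.41 ± 0.30. Tdgf1, a co-receptor for Nodal, went from 55.0 and 52.6 to 8202 and 8063, above the ESC mean of 6439.7. The homeobox factor Nanog was measurable already at day 2, with 934 and 842, and reached 4184 and 4110.03 at day 5, a log2 difference of 2.22 ± 0.08. Zfp42, a zinc finger protein also known as Rex1, went from 69.2 and 60.5 to 2255 and 3509, and Prdm14, a repressor of differentiation genes, from 7.13 and 13.9 to 419.96 and 451. For Esrrb, Nanog, Zfp42 and Prdm14 both day 5 libraries lay above both day 2 libraries and below the ESC means, which were 20984, 25331, 19111 and 2059.7. Sall4, a zinc finger factor, stood at 9002 and 10761 at day 5, close to its ESC mean of 9079. The smallest rise of the list was that of Klf5, from 149.7 and 161 to 277 and 307, and its ESC mean was 2259.

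Several of these genes had next to no reads at day 2. Dppa3, a protein that guards methylation in the early embryo, had 1 read in both day 2 libraries together and 507 and 758 normalized counts at day 5, a ratio of 1252 (95% exact interval, counting error only, 224 to 49467). Dppa4, a nuclear partner of Dppa2, had 3 reads at day 2 and 511 and 600.3 at day 5, a ratio of 368 (126 to 1786). Fitted log2 differences of such genes depend on the pseudocount of 1, and were 8.77 for Dppa3 and 8.12 for Dppa4.

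The largest increases were not all of genes abundant in ESCs. By size, the 12 largest increases among protein-coding genes with at least 100 normalized counts at day 5 were those of Dppa5a, Mep1b, Triml2, Dppa3, Clec2i, Serpina3m, Dnmt3l, Triml1, Dppa4, Trap1a, Cyp2b23 and Rhox6. All 12 had day 2 means under 10 and could pass the filter on the mean only through day 5. Of these, 9 were higher in ESCs than in NPCs and 3 had a mean of at most 10 over the ESC and NPC libraries together. Triml2 went from 1 read in both day 2 libraries together to 754 and 982 normalized counts, a ratio of 1722 (309 to 68051), and its ESC mean was 3220.02. Triml1 and Rhox6, an X-linked homeobox gene of the germline and placenta, had 0 reads at day 2. They were at least 97.2-fold and 76.2-fold higher at day 5 against a floor of 3 reads per library. Trap1a, an X-linked gene of the embryo and placenta, went from 4.07 and 1.99 to 759 and 1178, below its ESC mean of 7272.

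Mep1b, Clec2i, Serpina3m and Cyp2b23 were abundant at day 5 and far less abundant in ESCs and NPCs. Mep1b, a subunit of the metalloprotease meprin, had 1176 and 1254 normalized counts at day 5, against 2.04 and 0 at day 2 and means of 0.486 in NPCs and 66.7 in ESCs. Clec2i, a C-type lectin-related protein, had 0 reads at day 2, 263 and 429.8 at day 5 and 1.93 in ESCs. Serpina3m, a serine protease inhibitor, had 725 and 1003 at day 5 and 15.0 in ESCs. Cyp2b23, a cytochrome P450, had 967 and 1514 at day 5 and 19.3 in ESCs. In all of these genes the day 5 libraries exceeded every other value given, so that their level at day 5 was not on the way from the NPC to the ESC level. Ly6g6c, a Ly6 family protein chosen after its values were seen, had the same pattern, with 12.2 and 1.99 at day 2, 1434 and 1075 at day 5 and a mean of 3.36 in ESCs.

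**Figure D2:**
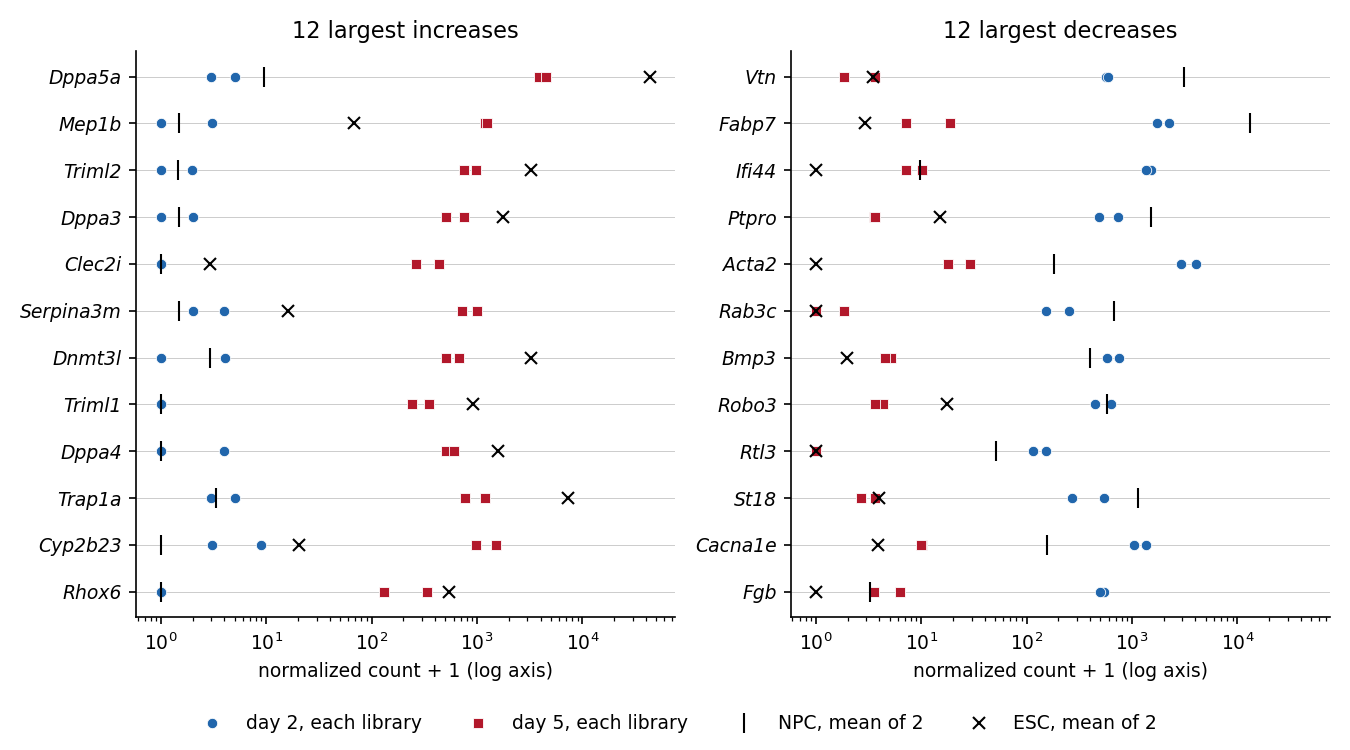
Normalized counts plus 1 (log axes) of the 12 largest increases (left) and 12 largest decreases (right), with each day 2 library (circles), each day 5 library (squares) and the means of 2 NPC (bars) and 2 ESC libraries (crosses). The days do not overlap in any of these genes, which the rule for naming them required; Mep1b, Clec2i, Serpina3m and Cyp2b23 are the increases whose day 5 libraries lie above the ESC mean.

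The factors of the cassette were measured together with the genes of the cell, since the counts do not separate them. All 4 passed the threshold as higher at day 5, with log2 differences from 0.23 to 1.54, but Sox2 did not under every alternative. Pou5f1 (Oct4) had 8739 and 8204 at day 2 and 25634 and 23601 at day 5, against 4.09 in NPCs, and a log2 difference of 1.54 ± 0.07. Klf4 had a log2 difference of 0.47 ± 0.07 and Myc of 0.51 ± 0.08. At day 5 Myc stood at 9666 and 8399, far above means of 262 in NPCs and 107 in ESCs. The log2 difference of Sox2 was 0.23 ± 0.08, and it did not pass the threshold without day 2 replicate 1 (0.13) or without day 5 replicate 2 (0.20), or after rescaling each library to the same total (0.10, limma adjusted p = 0.31).

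Of 10 genes of formative and primed pluripotency, 7 rose and 1 fell (2 fell without day 2 replicate 2 or without day 5 replicate 1). Nodal, a ligand of the TGFβ family, went from 16.3 and 7.94 to 587 and 634, and its inhibitor Lefty2 from 281 and 297 to 11786 and 12049.5. The log2 difference of Lefty2 was 5.36 ± 0.07, and the day 5 libraries lay below the ESC mean of 13624. Eomes, a T-box factor of mesendoderm, went from 9.17 and 17.9 to 236 and 299. Dnmt3b, a de novo DNA methyltransferase, went from 327 and 344 to 4369.6 and 5495. Lef1, a nuclear partner of β-catenin, fell by 0.43 on the log2 scale. The log2 differences of Otx2 and T were -0.17 and -0.21 and did not pass the threshold.

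Synthesis of the SSEA1 epitope rests on a fucosyltransferase acting on an N-acetyllactosamine chain. Fut9, the fucosyltransferase that makes SSEA1 in ESCs, had 433 and 495 at day 2 and 1742 and 2086 at day 5, with a log2 difference of 2.04 ± 0.12. The day 5 libraries had been selected for this epitope, and they stood above both the NPC mean of 548 and the ESC mean of 859. Fut4, the other enzyme, had 32.6 and 35.7 at day 2 and 31.1 and 11.5 at day 5; its log2 difference of -0.81 did not pass the threshold, but did without day 5 replicate 1 (-1.49, adjusted p = 0.017) and with all 24 libraries in 1 fit. Of the galactosyltransferases, B4galt1 rose by 0.65 ± 0.09 and B4galt2 had a log2 difference of -0.79 ± 0.11, a decrease.

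The LIF receptor pathway keeps mouse pluripotent cells undifferentiated through Stat3. Of 6 genes tested, 4 fell, 1 rose and 1 did not pass the threshold, with a median log2 difference of -0.38. Over all genes, 35.6% fell and 34.9% rose. The receptor chain Il6st went from 4738 and 3909.6 to 1958 and 2647, and its log2 difference was -0.92 ± 0.15. Stat3 had a log2 difference of -0.52 ± 0.08 and the kinase Jak2 of -0.49 ± 0.07. Both fell. The log2 difference of the ligand-binding chain Lifr was 0.52 ± 0.19, and that of Jak1 was -0.28 ± 0.08. Lifr did not pass the threshold without day 2 replicate 2 (0.39) or day 5 replicate 2 (0.23), and Jak1 did not without day 2 replicate 1 (-0.19) or day 5 replicate 2 (-0.22). Lifr also did not without the filter on low values. Socs3, the feedback inhibitor, had 2996 and 2524 at day 2 and 2973 and 2929.8 at day 5, a log2 difference of 0.10 that did not pass the threshold. Without day 2 replicate 1 it did (0.23, adjusted p = 0.069).

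The miR-290 cluster, a group of microRNA hairpins of pluripotent cells on chromosome 7, appeared at day 5. In total RNA libraries these reads come from the primary transcript or the hairpin rather than from the mature microRNA. The mature sequences of its main strands in RefSeq (GRCm38.p6, plus strand) are printed here, with the seed (bases 2 to 8) in capitals, because the rising hairpins share seeds among themselves and with the miR-302 cluster.
mmu-miR-291a-3p: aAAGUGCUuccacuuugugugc
mmu-miR-294-3p: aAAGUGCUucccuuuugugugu
mmu-miR-295-3p: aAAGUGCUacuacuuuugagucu
mmu-miR-290a-3p: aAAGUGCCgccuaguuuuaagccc
mmu-miR-291b-3p: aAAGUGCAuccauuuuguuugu
mmu-miR-293-3p: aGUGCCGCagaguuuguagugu
mmu-miR-302b-3p: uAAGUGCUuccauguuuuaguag
mmu-miR-302d-3p: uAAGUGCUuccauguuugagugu

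The 3 cluster members miR-291a-3p, miR-294-3p and miR-295-3p have the same seed, AAGUGCU, which miR-302b-3p and miR-302d-3p also carry. The printed miR-290 cluster sequences lie within chr7:3218639-3220837, and those of miR-302b and miR-302d on chromosome 3. miR-292a-3p is named only. Of 14 hairpins listed, 12 were found among the genes measured and 7 passed the filter on the mean, all of them of the miR-290 cluster; all 7 rose. They could pass only through their day 5 values. Mir291a had 0 reads at day 2 and 52.2 and 65.7 normalized counts at day 5. Mir294 had 0 reads at day 2 as well and 33.7 and 52.4 at day 5, and so did Mir295, with 49.7 and 81.7 at day 5. Against the floor of 3 reads per library they were at least 19.5-fold, 14.3-fold and 21.8-fold higher at day 5. Mir291b had 1 read in both day 2 libraries together and 90.1 and 132 at day 5, a ratio of 220.2 (39.2 to 8731). All day 5 libraries lay below the ESC means, which ran from 97.6 for Mir294 to 268 for Mir291b. The median log2 difference of the 7 was 5.81, or 4.49 with the 3 hairpins at 0 reads set at their bound. Of the miR-302 and miR-367 hairpins, Mir302a to Mir302d had 0 reads in all 4 libraries, which allows up to 3 reads per library, and Mir367 had 1 read.

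Genes of epithelial cells rose and most regulators of the mesenchymal state fell. Of 23 epithelial genes tested, 21 rose, 20 of them at least 2-fold, with a median log2 difference of 2.64. Among the genes that rose, Rab25 had a day 2 mean under 10 and could pass the filter on the mean only through day 5. Cdh1 (E-cadherin), the adhesion molecule of epithelial junctions, went from 2927 and 2197 to 16261 and 16199.5, above the ESC mean of 10219. Its log2 difference was 2.68 ± 0.12. Cldn6, a tight junction claudin of early embryos, went from 34.6 and 18.9 to 1753 and 1599, against an ESC mean of 163. Pkp3, a desmosome plaque protein, went from 26.5 and 10.9 to 638 and 723, and the small GTPase Rab25 from 7.13 and 1.99 to 216 and 232. In each of these genes the days did not overlap and the day 5 libraries exceeded the ESC mean. The log2 difference of Cldn3 was -0.27, and it lost the threshold when day 2 replicate 1 (-0.33), day 2 replicate 2 (-0.21) or day 5 replicate 2 (-0.12) was left out. It also lost it with a pseudocount of 0.1, without the filter, with size factors of the 4 libraries, with all 24 libraries in 1 fit, with DESeq2 and with edgeR.

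Of 14 mesenchymal regulators, 11 fell, each at least 2-fold, and 3 rose, with a median of -3.53. Vim (vimentin), the intermediate filament of mesenchymal and neural precursor cells, went from 34284 and 34148 to 1962 and 1719, below the ESC mean of 2591. Its log2 difference was -4.22 ± 0.08. Tgfb2, a TGFβ ligand, went from 859 and 784 to 52.2 and 32.0. Twist2, a basic helix-loop-helix factor, fell from 73.3 and 52.6 to 2.52 and 0, a ratio of 48.4 (16.2 to 238). Zeb1, a repressor of E-cadherin, had a log2 difference of -2.72 ± 0.17. All 4 had been higher in NPCs than in ESCs. Fn1 (fibronectin) had a log2 difference of 0.82 ± 0.14, an increase. Those of Snai1 and Tgfb1 were 0.86 and 0.74 and rested on fewer than 60 normalized counts in each library. With 1 library left out, Snai1 passed the threshold only without day 2 replicate 1 (1.34) and otherwise had log2 differences of 0.37 to 0.93, and Tgfb1 passed it only without day 5 replicate 1 (1.01) and otherwise had 0.48 to 0.82. Both also missed it without the filter, after rescaling to the same total and with DESeq2.

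All 20 fibroblast genes fell, 19 of them at least 2-fold, with a median of -3.71. Acta2, the actin of smooth muscle cells and myofibroblasts, went from 4077 and 2928 to 27.8 and 16.9, a log2 difference of -7.25 ± 0.26. Its NPC mean was 181, below both day 2 libraries. Col1a1, the main collagen of fibroblasts, went from 12559 and 9244 to 439 and 321, with an NPC mean of 659. Col3a1 went from 24921 and 15315 to 191 and 226, with an NPC mean of 25323, and the proteoglycan Lum from 671 and 429.8 to 4.21 and 10.7. The smallest change of the list was that of Sparc, -0.79 ± 0.09.

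Y-linked genes, which the male feeders carry and the female cells lack, moved with these genes, and all 4 listed fell. All 4 had day 5 means under 10 and could pass the filter on the mean only through day 2. Ddx3y, an RNA helicase encoded on the Y chromosome, had 109.98 and 105 at day 2 and 3.37 and 0.888 at day 5, against 0 in NPCs. Eif2s3y, a subunit of a translation factor, had 51.9 and 48.6 at day 2 and 1 read at day 5. The histone demethylase gene Kdm5d had 38.7 and 25.8 at day 2 and its relative Uty had 51.9 and 38.7, and each had at most 2 reads in any day 5 library. The sum of the 4 was 253 and 218 normalized counts at day 2, 5.89 and 2.66 at day 5, and at most 1.94 in each NPC or ESC library. The sum of the 20 fibroblast genes was 89889 to 120050 at day 2, 15889 to 16594 at day 5, 47174 to 68376 in NPCs and 3921 to 4006 in ESCs. No fibroblast gene was at 0 in both libraries of either day. The part of the feeders in the differences of fibroblast and other genes was not tested.

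**Figure D3:**
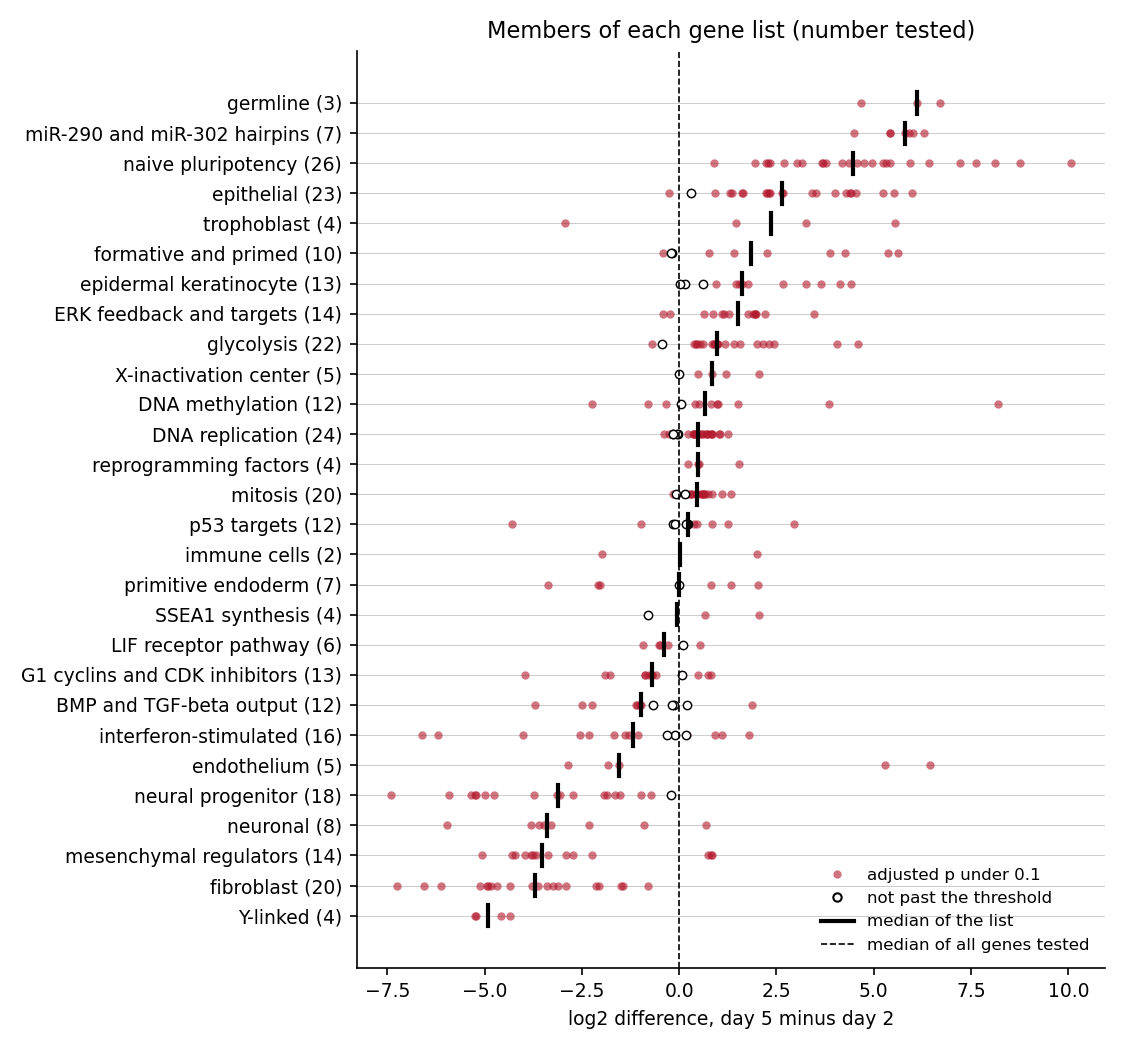
Log2 difference between day 5 and day 2 of every member tested of 28 gene lists, with the number tested in brackets. Filled points passed the threshold, open points did not, bars are list medians and the dashed line is the median of all genes tested; naive pluripotency (median 4.46) lies to the right and fibroblast genes (median -3.71) to the left.

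The neural program of the starting cells was reduced further. Of 20 neural progenitor genes, 18 were tested, 17 fell and none rose, with a median of -3.10, beside 35.6% of all genes that fell. Fabp7, a fatty acid-binding protein of radial glia, had 1737 and 2246 at day 2 and 17.7 and 6.22 at day 5, with an NPC mean of 13240.1. Its log2 difference was -7.41 ± 0.41. The Notch ligand Dll1 went from 729 and 1038 to 32.8 and 12.4, and its day 2 libraries were already below the NPC mean of 3678. Olig2 had 22.4 and 29.8 at day 2 and 0 reads at day 5, at least 10.1-fold lower. Nes (nestin), the intermediate filament that marks neural precursors, went from 9423 and 11667 to 5339 and 5289, with a log2 difference of -0.98 ± 0.10. The log2 difference of Egfr was -0.22 and did not pass the threshold. Without day 5 replicate 1 it did (-0.60), and without day 5 replicate 2 it was 0.16.

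Of 8 neuronal genes, 7 fell. Dcx (doublecortin), a microtubule protein of migrating neurons, went from 1354 and 1899.7 to 26.9 and 22.2. The RNA-binding proteins Elavl3 and Elavl4 had log2 differences of -3.61 ± 0.20 and -3.81 ± 0.23. Stmn2, a tubulin-binding protein, was the exception, with 4539.8 and 4502 at day 2, 7703 and 6955 at day 5 and a log2 difference of 0.70 ± 0.07.

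The 12 largest decreases were those of Vtn, Fabp7, Ifi44, Ptpro, Acta2, Rab3c, Bmp3, Robo3, Rtl3, St18, Cacna1e and Fgb. Of these, 10 were higher in NPCs than in ESCs. All but Fabp7 and Acta2 had day 5 means under 10 and could pass the filter on the mean only through day 2. Vtn (vitronectin), an adhesive glycoprotein, went from 563 and 595 to 0.842 and 2.66, with an NPC mean of 3083. Ptpro, a receptor tyrosine phosphatase, went from 481 and 736 to 2.52 and 2.66, and the axon guidance receptor Robo3 from 442 and 637 to 3.37 and 2.66. Rab3c, a GTPase of synaptic vesicles, had 152 and 250.1 at day 2 and 1 read at day 5, a ratio of 466 (83.2 to 18459). Rtl3, a retrotransposon-derived gene on the X chromosome, had 153 and 113 at day 2 and 0 reads at day 5, at least 51.2-fold lower. Some were higher at day 2 than in NPCs. Cacna1e, a voltage-gated calcium channel, had 1045 and 1345 at day 2, against 154 in NPCs and 9.26 and 8.88 at day 5. The fibrinogen chain Fgb had 537 and 493 at day 2, against 2.29 in NPCs and 2.52 and 5.33 at day 5. For these 2 genes both day 2 libraries lay above the NPC and ESC means.

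Interferon-stimulated genes moved in both directions although no IFNγ had been added. Of 16 genes tested, 9 fell, each at least 2-fold, and 4 rose. Over all genes, 35.6% fell, 19.6% at least 2-fold, and 34.9% rose. Ifit1, which binds foreign RNA, fell from 2154 and 2029.7 to 21.0 and 35.5, with an NPC mean of 0.44. Its log2 difference was -6.20 ± 0.24. Ifit3, its partner, went from 888 and 828 to 7.57 and 7.99, and the ubiquitin-like modifier Isg15 from 435 and 396 to 19.4 and 31.1. Ifi44, an interferon-induced protein, went from 1498 and 1364 to 9.26 and 6.22. The NPC means of Ifit3, Isg15 and Ifi44 were 4.14, 0.486 and 8.63, so all were far higher at day 2 than in NPCs. Of genes chosen after their values were seen, Usp18 went from 1709.8 and 1925 to 32.8 and 37.3, Oas2 from 1255 and 1384 to 53.9 and 111, and Rsad2 from 697 and 815 to 26.9 and 30.2. The genes that rose were others. The transcription factor Irf1 went from 424 and 327 to 1198 and 1392, a log2 difference of 1.79 ± 0.15, and the class I histocompatibility gene H2-K1 from 1082 and 1089 to 2466 and 2165. The GTPase Gbp2 had a log2 difference of 0.93 ± 0.17. B2m, the light chain of class I molecules, went the other way, with a log2 difference of -1.05 ± 0.08.

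Promoter sequence of 3 genes that fell is shown because they share a repeat of the type bound by factors of type I interferon signaling. The pattern of GAAA, any 2 bases and GAAA (TTTC, any 2 bases and TTTC on the other strand), searched in the 250 bases before the start in RefSeq (GRCm38.p6), stands in capitals. Overlapping matches were not counted.
Ifit1: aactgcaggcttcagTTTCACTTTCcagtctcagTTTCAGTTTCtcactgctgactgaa
Ifit3: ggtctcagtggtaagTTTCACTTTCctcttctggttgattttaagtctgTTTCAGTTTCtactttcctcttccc
Isg15: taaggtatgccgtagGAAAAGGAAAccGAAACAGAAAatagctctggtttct

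The windows are chr19:34640770-34640828 (plus strand), chr19:34583358-34583431 (plus strand) and chr4:156200860-156200911 (minus strand). Each holds 2 matches, and the match nearest to the start ends 76, 113 and 57 bases before it. All 16 genes of the list had a promoter in the table, and 9 held the pattern (B2m, Bst2, Gbp2, Gbp3, Ifit1, Ifit3, Isg15, Oas1a and Socs1). Over all 27025 genes with a promoter, 3.46% held it. The list was made of interferon-stimulated genes, so its share does not bear on the change between the days. The 9 include genes that fell (Ifit1, Ifit3, Isg15, Gbp3, B2m and Socs1), one that rose (Gbp2) and 2 that did not pass the threshold (Bst2 and Oas1a). Other genes of the list fell without holding the pattern.

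Genes of DNA replication and mitosis had small increases. Of 24 replication genes 18 rose and 2 fell, with a median of 0.49; after rescaling each library to the same total, 5 fell. Of 20 mitosis genes 17 rose and 1 fell, with a median of 0.46. Rescaling to the same total lowers both medians by about the shift of 0.12 given for all genes. Orc1, the largest subunit of the origin recognition complex, had a log2 difference of 1.25 ± 0.09, and Mad2l1, a spindle checkpoint protein, of 1.34 ± 0.06. Rrm1, the large subunit of ribonucleotide reductase, fell by 0.39. The other replication gene that fell was Tyms (-0.26), which missed the threshold without day 2 replicate 1 (-0.18) or day 5 replicate 1 (-0.15), without the filter, and with all 24 libraries in 1 fit. The mitosis gene that fell was Ccna2 (-0.15), which missed it without day 2 replicate 2 (-0.07), day 5 replicate 1 (-0.15) or day 5 replicate 2 (-0.15). Ccna2 also missed it with a pseudocount of 0.1, without the filter, under TMM scaling, with size factors of the 4 libraries, with DESeq2 and with edgeR. Of 13 G1 cyclins and inhibitors of cyclin-dependent kinases, 9 fell and 3 rose. Ccnd2 (cyclin D2) went from 6656 and 7257 to 2309 and 1754, with an ESC mean of 2.90. Cdkn2c, an inhibitor of Cdk4 and Cdk6, went from 249 and 267 to 16.0 and 15.1, a log2 difference of -3.97 ± 0.23. Ccne1 (cyclin E1) had one of 0.81 ± 0.13, an increase.

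Trp53 itself went from 2018 and 1921 to 4425 and 5045, a log2 difference of 1.26 ± 0.08, whereas the listed genes downstream of p53 were mixed. Of the 12 genes of this list, Trp53 included, 5 rose, 2 fell and 5 did not pass the threshold. Over all genes, 34.9% rose and 35.6% fell. Without day 2 replicate 1, 8 rose. Pmaip1 (Noxa), a promoter of apoptosis, went from 37.7 and 44.7 to 333 and 318, and the death receptor Fas fell from 349 and 335 to 16.8 and 16.0. The cell cycle inhibitor Cdkn1a, a target counted with the G1 genes, went from 5215 and 4091 at day 2 to 3512 and 2653 at day 5, a log2 difference of -0.60 ± 0.15.

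Glycolysis genes rose broadly. Of 22 genes, 20 rose, 9 of them at least 2-fold, and 1 fell, with a median of 0.98. The lactate exporter Slc16a3 went from 107 and 82.4 to 2628 and 1978, a log2 difference of 4.59 ± 0.18, above means of 1069 in NPCs and 1323 in ESCs. Aldoc, an aldolase, went from 48.9 and 47.6 to 1004 and 678, and the glucose transporter Slc2a3 from 3702 and 3893 to 22519 and 18597, with an ESC mean of 47979. Ldhb, the heart form of lactate dehydrogenase, was the one that fell, by 0.71, and without day 5 replicate 1 or after rescaling to the same total 2 genes of the list fell.

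Feedback genes and targets of ERK signaling rose in 12 of 14 cases, with a median of 1.51. The other 2 were Spry1 and Spred1, feedback inhibitors of the pathway. Spry1 had a log2 difference of -0.41, which missed the threshold without day 2 replicate 1 (-0.31) or day 5 replicate 2 (-0.39). Spred1 had one of -0.24, which missed it without day 2 replicate 2 (-0.16) or day 5 replicate 1 (-0.18). Etv5, an ETS factor downstream of FGF, went from 703 and 718 to 7816 and 7927, a log2 difference of 3.47 ± 0.07. The phosphatase Dusp5 went from 471 and 447 to 2234 and 2034, above means of 219 in NPCs and 192 in ESCs, and the AP-1 factor Fosl1 from 91.7 and 74.4 to 305 and 347. Of 12 tested genes of BMP and TGFβ output, 7 fell and 1 rose. Id3, an inhibitor of basic helix-loop-helix factors, went from 1745 and 1681 to 295 and 450.3, and Smad7, an inhibitory Smad, rose from 528 and 496 to 1787 and 1991.

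Enzymes of DNA methylation and demethylation moved apart. Of 12 genes, 8 rose and 3 fell, beside 34.9% and 35.6% of all genes. Dnmt3l, a cofactor of de novo methyltransferases, had 3 reads at day 2 and 505 and 674 normalized counts at day 5, a ratio of 389.7 (133 to 1892). Its ESC mean was 3241. Tet1, which oxidizes 5-methylcytosine, went from 589.6 and 589.6 to 7718 and 9355, a log2 difference of 3.85 ± 0.10, and its ESC mean was 11051. Tet2 had a log2 difference of 1.52 ± 0.07, and its day 5 libraries lay above the ESC mean of 8201. Tet3 went from 1683 and 1631 to 1028 and 884, a decrease. The maintenance enzyme Dnmt1 and its partner Uhrf1 rose by 0.50 ± 0.06 and 0.97 ± 0.08, Dnmt3a by 0.41 ± 0.06, the repair-linked Gadd45a by 1.00 ± 0.19 and the cytidine deaminase Apobec1 by 0.81 ± 0.16. Gadd45g went from 723 and 752 to 155 and 156. The glycosylase Tdg had a log2 difference of -0.35 ± 0.14, which missed the threshold without day 2 replicate 2 (-0.23), day 5 replicate 1 (-0.33) or day 5 replicate 2 (-0.36), and with DESeq2. Gadd45b had one of 0.05 and did not pass.

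Germline genes, many of which are held silent by DNA methylation, were mostly near 0. Of 15 genes, 3 had a mean above 10, so that the other 12 were not tested. All 3 rose, and Tex19.1 and Tdrd12 could pass the filter only through day 5. Without the filter on low values, 10 genes of the list rose. Tex19.1 went from 8.15 and 0.993 to 365 and 548, with an ESC mean of 2938. The piRNA factor Tdrd12 had 1 read at day 2 and 104 and 91.5 at day 5, with an ESC mean of 1531. Piwil2, an Argonaute protein of the germline, went from 42.8 and 30.8 to 817 and 1095, on either side of the ESC mean of 851. Dazl, an RNA-binding protein of germ cells, was at 7.57 and 7.99 at day 5, against 983 in ESCs.

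Markers of other lineages were also found among the genes that rose. Of 13 epidermal keratinocyte genes tested, 10 rose and none fell. Krt17, a keratin of stressed epidermis, went from 422 and 174 to 6747 and 3328, with an ESC mean of 749. Ly6d, a surface marker of keratinocytes and lymphocytes, went from 3.06 and 0.993 to 72.4 and 49.7 and was at 0 in NPCs and ESCs. Ly6d and Dsc3, another gene of the list that rose, had day 2 means under 10. They could pass the filter on the mean only through day 5. Krt6a had 2728 and 1804 at day 2 and 2716 and 2209.5 at day 5, so the days overlapped; its log2 difference of 0.14 did not pass the threshold, and its NPC mean was 1.80. The summed level of the 14 keratinocyte genes was 7420 to 11229 at day 2, 22975 to 28705 at day 5 and at most 303 in NPCs. Trp63, a defining factor of these cells, was at 13.2 and 10.9 at day 2 and 7.57 and 5.33 at day 5. These values were lower at day 5, but its mean was not above 10, so it was not tested.

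Other lists were mixed, beside 34.9% of all genes that rose and 35.6% that fell. Of 5 endothelial genes tested 2 rose and 3 fell. Pecam1, an adhesion molecule of endothelium and ESCs, went from 22.4 and 12.9 to 1579.7 and 1553, with an ESC mean of 1747. Tie1, an endothelial receptor tyrosine kinase, went from 40.7 and 30.8 to 1157 and 1777 and was at 6.80 in ESCs, while its relative Tek fell by 1.84. The others were Cdh5, with 19.3 and 17.9 normalized counts at day 2, and Kdr, with 35.6 and 43.7. Cdh5 missed the threshold without day 2 replicate 1 (-2.81) and Kdr without day 2 replicate 2 (-1.40). Of 4 trophoblast genes tested 3 rose. Elf5, an ETS factor of trophoblast and mammary gland, went from 5.09 and 0 to 167 and 79.0, and Tfap2c, an AP-2 factor of trophoblast and germ cells, from 159 and 107 to 933 and 1667. Elf5 had a day 2 mean under 10 and could pass the filter on the mean only through day 5. Of 7 primitive endoderm genes tested 3 rose and 3 fell, among them Gata4, which went from 66.2 and 46.6 to 244 and 213, and Foxa2, which went from 1159.9 and 1502 to 141 and 115. Gata6 (0.82) missed the threshold without day 2 replicate 2 (0.45) or day 5 replicate 1 (0.56), without the filter, after rescaling to the same total and with DESeq2. Of 6 immune cell genes 2 were tested. The lysosomal protein Cd68 went from 154 and 145 to 600.1 and 599, and Lyz2, a lysozyme of macrophages, went from 74.3 and 61.5 to 8.42 and 31.1. Ptprc (CD45), which defines blood cells, was at 16.0 and 12.4 at day 5.

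The ESC and NPC libraries, which take no part in the comparison of the days, were used to sort the genes by end point. Over all genes tested between these populations, 24.3% were at least 2-fold higher in ESCs and 28.3% in NPCs. Of 3394 genes higher in ESCs than in NPCs, 1172 (34.5%) rose at least 2-fold from day 2 to day 5 and 128 (3.77%) fell at least 2-fold, beside 12.1% and 19.6% of all genes. Of 4104 genes higher in NPCs, 2267 (55.2%) fell at least 2-fold and 90 (2.19%) rose. The share that moved to the ESC side was larger among genes higher in NPCs than among genes higher in ESCs, a difference that was not tested. The medians were -1.18 and 0.60. Over all genes too, falls of at least 2-fold (19.6%) were more common than rises (12.1%). Of 7350 genes tested between ESCs and NPCs but not called at least 2-fold apart, 5.13% rose and 5.01% fell at least 2-fold. With a 4-fold limit for the classes in place of 2-fold the shares were 60.2% of the genes higher in ESCs and 74.4% of the genes higher in NPCs.

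**Figure D4:**
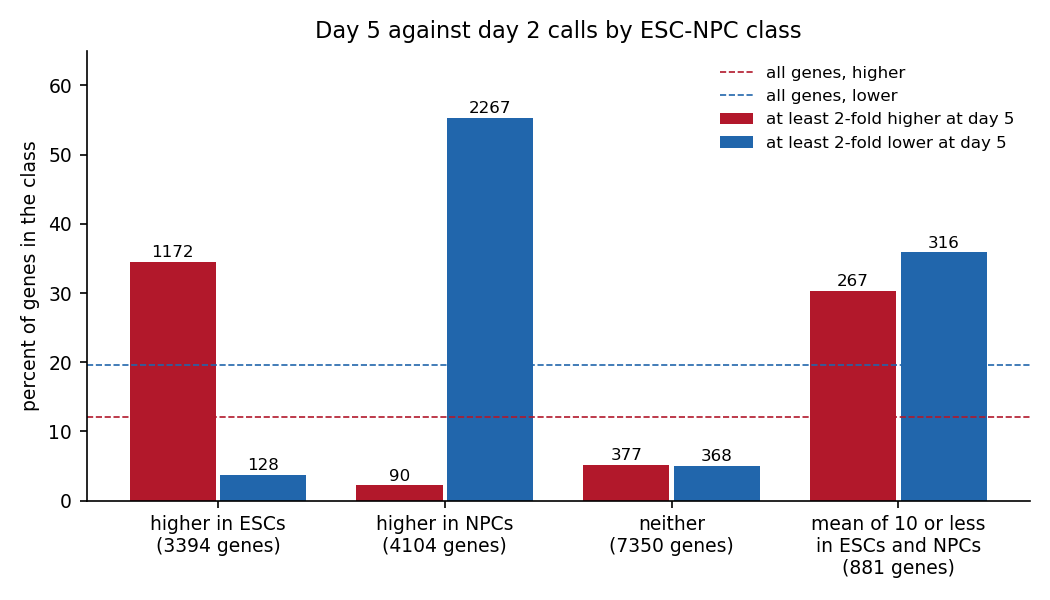
Percent of genes that rose (red) or fell (blue) at least 2-fold from day 2 to day 5 in 4 classes defined by ESC and NPC libraries, with the number of genes above each bar. Dashed lines mark 12.1% and 19.6%, the shares over all genes; 34.5% of the genes higher in ESCs rose and 55.2% of the genes higher in NPCs fell.

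A further class held 881 genes with a mean of at most 10 over the ESC and NPC libraries together. Of these, 267 (30.3%) rose and 316 (35.9%) fell at least 2-fold, and they made up 14.0% of all 2-fold increases and 10.3% of all 2-fold decreases. The filter used day 2 and day 5 values only, in this class as in the others. Large changes may be more likely in this class, whose genes were low in ESCs and NPCs, which was not tested. Genes of the other classes with a mean under 10 on either day, such as Dppa3 and Vtn, also passed the filter only through the other day. Clec2i, Serpina3m, Cyp2b23 and Tie1 belong to the increases, and Ifi44, Ifit1, Ifit3 and Fgb to the decreases. Some genes moved against their class. Tbx20, a T-box factor of the heart chosen after its values were seen, was higher in NPCs than in ESCs and went from 37.7 and 29.8 to 873 and 1186. Enpp3, an ectonucleotide pyrophosphatase chosen in the same way, went from 500.01 and 568 to 4129.8 and 4305, with means of 297 in NPCs and 115 in ESCs. At day 5 both stood above their NPC and ESC means.

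Of 568 X-linked genes tested, 31.7% rose and 38.6% fell, against 35.2% and 35.7% of 14946 autosomal genes. The medians were -0.05 and 0.00. Xist, the RNA that coats the inactive X, had 9450.2 and 9772 at day 2 and 9180.3 and 10160.5 at day 5, against means of 10412 in NPCs and 792 in ESCs. The log2 difference was 0.01 ± 0.07 and did not pass the threshold. The X mus share of Xist reads was 1.00 at day 2 and 0.998 at day 5. Of the other genes of the X-inactivation center tested, Rlim, a ubiquitin ligase that activates Xist, went from 7472 and 7821 to 15483 and 20005, with a log2 difference of 1.20 ± 0.11. Tsix, the antisense partner of Xist, went from 28.5 and 20.8 to 90.1 and 121, against 788 in ESCs; its counts come from a truncated allele and an intact one. Chic1 rose by 0.85 ± 0.11. Ftx had a log2 difference of 0.47 ± 0.17, and did not pass the threshold without day 5 replicate 2 (0.24), day 2 replicate 1 (0.45) or day 2 replicate 2 (0.49), or after rescaling to the same total (0.35).

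The allelic values, 1 per gene and population, gave the share of reads from X mus, the chromosome that becomes inactive in NPCs. Over 316 genes the median was 0.00107 in NPCs, 0.0212 in day 2 control cells, 0.0117 in day 5 control cells and 0.481 in ESCs. The quartiles were 0.00713 and 0.0626 at day 2, and 0.00105 and 0.0446 at day 5. The share was lower at day 5 in 190 genes, higher in 105 and equal in 21. A share of at least 0.1 was reached by 48 genes at day 2 and by 39 at day 5, against 313 in ESCs. The largest drop was that of Itm2a, from 0.326 to 0.0185, and the largest rise that of Alg13, from 0.00327 to 0.151. Kdm6a, which escapes X inactivation, stood at 0.385 and 0.386. With 1 value per population and no read numbers, the difference was not tested. The Y-linked counts of the male feeders also fell between the days, and their part in the X mus shares was not tested.

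**Figure D5:**
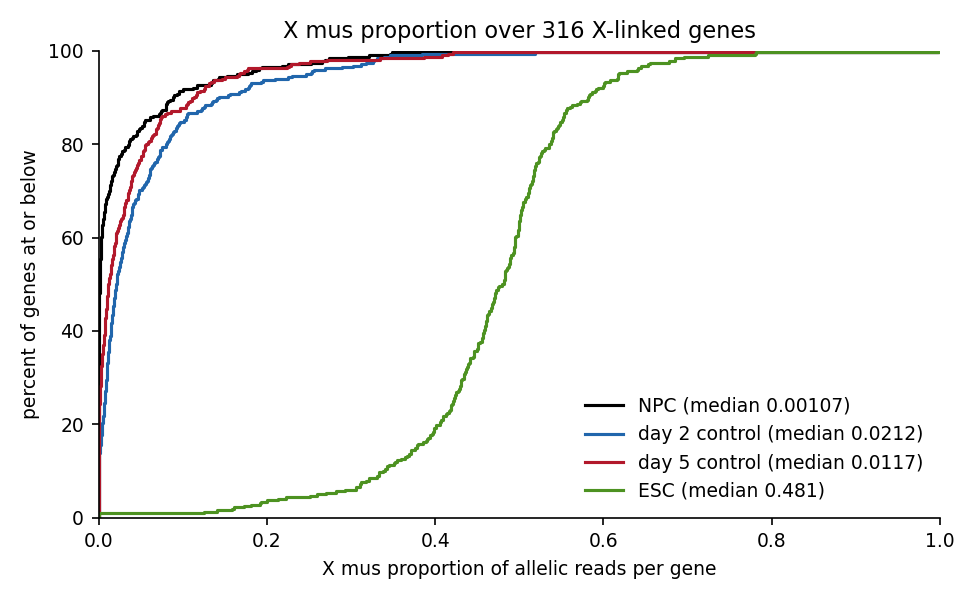
Percent of 316 X-linked genes (y axis) at or below each X mus proportion (x axis) in NPCs, day 2 and day 5 control cells and ESCs. The curves of both days stay close to that of NPCs, with medians of 0.0212 and 0.0117, and far from that of ESCs at 0.481.

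The same days were compared in cells given 10 ng/ml IFNγ from day 0, which share no libraries with the control comparison. Of the genes tested there, 34.1% rose and 36.7% fell. Of the 1906 genes that rose at least 2-fold without IFNγ, 1795 (94.2%) also rose with it, and of the 3079 that fell at least 2-fold, 2904 (94.3%) also fell. In the opposite direction 13 and 1 were called. The difference between the arms itself passed the threshold in 97 of 15729 genes (0.617%), 30 (0.191%) with a change higher and 67 (0.426%) with a change lower in IFNγ-treated cells. No naive pluripotency, epithelial or neural progenitor gene of the lists was among them, and 9 of 16 interferon-stimulated genes and 1 of 20 fibroblast genes (Col6a3, 1.41) were. Irf1 is an example. It rose by 1.79 without IFNγ, while with IFNγ it went from 7947 and 7484 to 4852 and 4638, a log2 difference of -0.70. Ifit1 fell in both arms, with log2 differences of -6.20 and -3.87. With the replicate number as a block, the counts were 58 higher and 101 lower. The count of 97 also moved with single libraries. Without day 5 IFNγ replicate 1 it was 189 higher and 252 lower, and without day 2 IFNγ replicate 1 it was 7 and 37. It was 9 and 62 without day 2 control replicate 1, 8 and 43 without day 2 control replicate 2, 18 and 63 without day 5 control replicate 2, 12 and 44 without day 2 IFNγ replicate 2, and 17 and 44 without day 5 IFNγ replicate 2.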

How the data were processed

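Total RNA libraries of 12 populations, 2 each, had been sequenced by the authors as paired ends after rRNA depletion, aligned with STAR and WASP to an mm10 genome masked at strain variants, and counted with HTSeq 0.6.1. The deposited values are normalized counts, the reads of a gene divided by 1 DESeq2 size factor per library (a signal, not whole counts), and the authors' X mus proportions, a fraction with 1 value per gene and population. Values were whole multiples of 1 read, so reads were recovered and depths computed from them. Genes with a mean above 10 in the 4 libraries were tested with limma 3.58.1 (R 4.3.3) on log2(normalized count + 1), with a trended prior and Benjamini-Hochberg adjustment over all 15729 genes, at an adjusted p of 0.1. This understates the change of low genes. Ratios at 1 to 3 reads have exact 95% intervals and folds against 0 use a floor of 3 reads per library, which cover counting error only. ESCs against NPCs, the IFNγ arm and the difference between arms (8 libraries in 1 model) were fitted in the same way, and fold limits of 2 and 4 defined classes. Alternatives were another pseudocount, no filter, other scalings (TMM in edgeR 4.0.16 among them), all 24 libraries in 1 fit, a replicate block, DESeq2 1.42.0, edgeR's quasi-likelihood test and each library left out. The limma, edgeR and DESeq2 procedures were run on simulated counts in which few genes changed, as many up as down. That setting does not test the scaling where many genes change.

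The genes named were the 12 largest increases and decreases among protein-coding genes with a mean of at least 100 in the higher group and no overlap between groups, up to 3 per direction in each of 28 lists, all members of 6 lists (reprogramming factors, Y-linked, SSEA1 synthesis, X-inactivation center, LIF receptor pathway and DNA methylation) and genes the study names. Klf5, Tdgf1, Otx2, T, Sparc, Olig2, Nes, Egfr, Krt6a, Trp63, Dazl, Ptprc, B2m, Bst2, Gbp3, Oas1a, Socs1, Cdkn1a, Cdh1, Zeb1, Dnmt3b, Mir294, Itm2a, Alg13, Kdm6a, Col6a3 and those so marked in the text were singled out after their values were seen. One gene that the rule names is not reported here. The members and lists were chosen with earlier results of these data known. Coordinates and gene types are from GENCODE vM21 (GRCm38), and sequences from RefSeq (GRCm38.p6).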

Additional observations from a re-analysis of the deposited data

Results flagged for a closer look

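The change from day 2 to day 5 differed between the arms with and without IFNγ in 11 genes described here besides Col6a3, by limma's test of the difference itself over all genes. The values are the log2 change with IFNγ minus that without it. The change was lower with IFNγ for H2-K1 (-3.16, adjusted p = 2.8e-05), Irf1 (-2.49, adjusted p = 0.00059) and Gbp2 (-2.44, adjusted p = 0.0013), which rose without IFNγ and had log2 changes of -2.07, -0.70 and -1.51 with it. The change was higher with IFNγ for Rsad2 (3.03, adjusted p = 0.0038), Oas2 (2.42, adjusted p = 0.077), Ifit1 (2.33, adjusted p = 0.016), Ifi44 (2.16, adjusted p = 0.011), Usp18 (1.92, adjusted p = 0.019), Isg15 (1.87, adjusted p = 0.089) and Ifit3 (1.65, adjusted p = 0.017), all of which fell in both arms. Enpp3, which rose in both arms, had a difference of 1.10 (adjusted p = 0.0073). For comparison, the difference passed the threshold in 0.617% of all genes.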

How the results depend on the processing

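The counts of genes changed between days stayed within 1.5 times under every alternative run. They were 4839 higher and 4922 lower with DESeq2, 5532 and 5550 with edgeR's quasi-likelihood test on recovered reads, 6189 and 6719 without the filter, and 4436 and 6496 after rescaling to the same total. With 1 library left out they were 4645 to 5056 and 4841 to 5330. The labels do not pair samples by replicate number. The deviations of same-numbered samples correlated at 0.0147 between days, and at 0.363 (day 2) and 0.287 (day 5) between arms. With a replicate block the counts were 5539 and 5625; for the difference between arms the block gave 58 genes with a higher and 101 with a lower change in place of 30 and 67, and leaving out 1 library gave 7 to 189 and 37 to 252. The cause was not tested. The X mus difference between days was -0.00941 as the difference of medians and -0.0138 as that of means. Of 158 genes followed over 2054 alternative values, 1980 kept direction and side of the threshold, 61 no longer passed it, 4 newly passed it and 9 changed sign, in 20 genes. Those that changed sign had not passed the threshold. After rescaling they were Gadd45b (-0.072), Socs3 (-0.023) and Xist (-0.12). With 1 library left out they ranged from -0.24 to 0.34 for Gadd45b, from -0.022 to 0.23 for Socs3, from -0.066 to 0.080 for Xist and from -0.60 to 0.16 for Egfr. The median SE of 0.13 over all genes, from 2 libraries per day, limits which differences could be detected.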
